A study of Mus musculus with 3 samples.

Results

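The Notch pathway was followed through 10 genes in E6.5 mouse embryos with and without the *tw18* lethal. The genes were taken by symbol from the deposited table of 23421 genes and comprise the 4 receptors *Notch1*, *Notch2*, *Notch3* and *Notch4*, the 4 ligands *Dll1*, *Dll4*, *Jag1* and *Jag2*, and the 2 target genes *Hes1* and *Hey1*. All 10 were found, and none was listed at 0 in any library. The *tw18* haplotype of mouse Chromosome 17 carries a deletion that removes *Ppp2r1a*, the gene of the PP2A scaffold subunit. RNA-seq was done on 1 library of wild type, 1 of *tw18*/+ and 1 of *tw18*/*tw18* embryos. All are labelled as strain 129/SvEv, and all were offspring of *tw18*/+ parents. The paper raises mixed, non-inbred backgrounds as a possible source of variation between its mutant embryos. Background and genotype cannot be told apart with 1 library each. The labels name the tissue as epiblast, while the methods describe the embryo proper, in which visceral endoderm still surrounds the epiblast. The number of embryos in a library is not given in the sources used here. The paper describes the mutant embryos of its E6.5 in situ hybridizations as slightly younger. Stage and genotype therefore cannot be told apart in the comparisons of the *tw18*/*tw18* library. With 1 library for each genotype there is no replicate check, no p-value is given, and each difference is one between these libraries.

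Notch signaling passes between touching cells. A ligand of the Delta or Jagged family on one cell binds a Notch receptor on its neighbour, ADAM proteases and then gamma-secretase cut the receptor, and the released intracellular domain enters the nucleus. There it joins the DNA-binding protein RBPJ and a Mastermind co-activator and switches on genes of the *Hes* and *Hey* families, which encode transcriptional repressors. In the mouse embryo the pathway is best known for setting the somite boundaries and for shaping blood vessels, where *Dll4*, *Notch1* and *Notch4* act in endothelium and *Notch3* in the mural cells around it.

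Expression is given in FPKM, the fragments per kilobase of transcript scaled to the size of the library, so that levels of different genes can be compared per length. The low values of genes with a single transcript step by what 1 fragment is worth. This spacing put the depth at about 14600000 fragments in wild type, 20600000 in *tw18*/+ and 20400000 in *tw18*/*tw18*. The 95% intervals below come from the fragment numbers derived from it and cover counting error only, not the spread between embryos. *Ppp2r1a* stood at 146 FPKM in wild type, 81.7 in *tw18*/+ and 12.8 in *tw18*/*tw18*. The order is that of the labels, but a gene inside the deletion was still read in the library labelled *tw18*/*tw18*, and the source of these reads was not tested. The 12 epiblast markers were all present and summed to 1948, 2066 and 1002 FPKM in the same order, led by *Dnmt3b*, *Pou5f1*, *Utf1* and *Slc7a3*. The 12 visceral endoderm markers summed to 909, 909 and 1251. Genes of other tissues were also found in every library. The 12 markers of decidua, the maternal tissue around the embryo, summed to 1806 FPKM in wild type, 288 in *tw18*/+ and 796 in *tw18*/*tw18*, and *Prl8a2* alone made up 1504, 155 and 377 of this. The sum does not speak for the list. Of the 12 decidual markers 7 were higher and 2 lower (*Prl8a2* and *Prl3c1*) in *tw18*/*tw18* than in wild type, and 10 were higher than in *tw18*/+. *Hand2*, a transcription factor gene of the decidua, was at 27.5, 16.3 and 63.0 FPKM. Sums of the 8 immune markers were 24.9, 17.4 and 51.1, and of 10 extra-embryonic ectoderm markers 106, 91.2 and 99.5. Of the 7 trophoblast giant cell markers *Prl3b1* and *Ctsq* were listed at 0 throughout and the sums were 133, 89.4 and 247. Of the 8 erythroid genes in the table the embryonic globins *Hbb-bh1*, *Hba-x* and *Hbb-y* were at 0 in each library, and the sums were 52.5, 56.3 and 177. They came mainly from other globin genes that went in opposite directions, so the sums show no common trend. *Hba-a1* was at 52.2, 27.1 and 0.007 FPKM, *Hba-a2* at 0.0201, 26.9 and 127, and *Hbb-bs* at 0.018, 0.555 and 47.6. The part of these tissues in the levels of the Notch pathway genes was not tested. In a mixture of tissues, fewer cells of a type and less RNA per cell cannot be told apart.

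None of the 10 genes lies in the deletion, but 3 of them are on the same chromosome. The paper describes the *t* haplotype as a variant stretch of Chromosome 17 that is far larger than the deletion. Whether these 3 genes lie in variant sequence in *tw18* is not given in the sources used here. Its part in their levels was not tested. *Dll1* is on Chromosome 17 from 15367354 to 15376872 (GRCm38, GENCODE annotation), proximal to *Ppp2r1a* at 20945311 to 20965916, and *Notch3* (32120820 to 32166852) and *Notch4* (34564268 to 34588503) lie distal to it. *Notch1* (26457903 to 26516663), *Dll4* (119325784 to 119335962) and *Jag1* (137081456 to 137116644) are on Chromosome 2, *Notch2* (98013527 to 98150361) and *Hey1* (8663359 to 8667256) on Chromosome 3, *Jag2* on Chromosome 12 from 112907819 to 112929776 and *Hes1* on Chromosome 16 from 30064384 to 30067796. *Notch4*, *Jag1*, *Jag2*, *Hes1* and *Hey1* shared no 50-base word with the transcripts of another gene on either strand. Transcripts of the opposite strand share 16.1% of the words of *Dll1*, 9.11% of *Notch1*, 4.85% of *Notch3* and 4.33% of *Dll4*, and *Gm42820* shares 3.76% of those of *Notch2* on the same strand. The libraries were made to keep the strand, but the strand setting of the counting is not given in the sources used here, so reads of the 2 strands may not be told apart at these words. *Gm14207*, the partner of *Dll4*, was listed at 0 in wild type, at 0.371 FPKM in *tw18*/+ and at 0 in *tw18*/*tw18*.

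Promoter sequence is shown for *Dll4*, *Notch1*, *Notch4* and *Jag1*, whose levels passed the threshold described below in at least 1 comparison, as far as the window lies outside GENCODE exons. The window of *Jag2*, the other such gene, lies within an exon and is not shown. That of *Notch1* precedes a RefSeq start inside the GENCODE gene, not its outermost start. Windows of 250 bases before the start were on hand from RefSeq (GRCm38.p6) for 8 of the 10 genes, 9 windows in all with a pair for *Dll1*. *Hes1* and *Hey1* had none. The RBPJ core TGGGAA, searched on both strands, was in 0 of the 9 windows and in 21.6% of all 32851 windows of the same length. The longer form GTGGGAA, which contains the core, was in 5.42% of all windows and therefore in none of these. The N-box CACNAG, a site known to be bound by HES repressors, was in 4 of the 9, those of *Notch1*, *Notch2*, *Notch3* and *Dll4*, and in 36.7% of all windows. The E-box CACGTG was in none of the 9 and in 6.02% of all. The median GC content was 65.6% in the 9 windows and 52.4% in all windows. The shares of all windows are therefore not matched for base composition, and no depletion or excess of a motif can be read from them. Whole windows were searched, including bases within exons. Below, capitals mark an N-box on either strand. The stretches are chr2:119325534-119325783 on the plus strand for *Dll4*, chr2:26503825-26504072 on the minus strand for *Notch1*, chr17:34564045-34564267 on the plus strand for *Notch4* and chr2:137116645-137116770 on the minus strand for *Jag1*, written 5′ to 3′ along the gene.
Dll4: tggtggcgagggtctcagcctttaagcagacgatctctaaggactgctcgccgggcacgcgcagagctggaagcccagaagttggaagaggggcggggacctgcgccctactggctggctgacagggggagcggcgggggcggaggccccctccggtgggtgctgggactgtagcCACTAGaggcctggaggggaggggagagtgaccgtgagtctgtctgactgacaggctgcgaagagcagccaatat
Notch1: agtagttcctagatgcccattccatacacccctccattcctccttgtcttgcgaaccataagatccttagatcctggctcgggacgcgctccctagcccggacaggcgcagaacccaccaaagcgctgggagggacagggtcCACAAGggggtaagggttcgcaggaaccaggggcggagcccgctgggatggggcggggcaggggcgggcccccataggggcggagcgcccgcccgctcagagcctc
Notch4: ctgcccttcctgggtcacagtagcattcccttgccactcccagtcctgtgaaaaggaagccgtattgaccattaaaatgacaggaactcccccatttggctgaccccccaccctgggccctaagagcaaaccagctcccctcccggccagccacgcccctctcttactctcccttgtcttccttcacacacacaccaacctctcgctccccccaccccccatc
Jag1: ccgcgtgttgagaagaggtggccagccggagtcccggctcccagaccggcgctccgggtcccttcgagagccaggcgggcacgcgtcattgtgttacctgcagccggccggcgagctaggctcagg

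Among the 10 genes, 3 were higher in *tw18*/*tw18* than in wild type, the ligands *Dll4* and *Jag2* and the receptor *Notch1*, and 1, the ligand *Jag1*, was lower. A gene was counted when its log2 ratio was at least 1 in either direction and the higher of both values reached an FPKM of 1. By this rule 15.1% of the 12917 genes tested were higher and 6.94% lower in *tw18*/*tw18*. With the libraries rescaled to equal FPKM sums, which adds 0.21 to each log2 ratio, 4 of the 10 were higher (*Notch4* in addition) and 0 lower, against 19.3% and 4.89% of all genes. *Dll1* did not reach an FPKM of 1 in any library, and *Dll4* reached it only in *tw18*/*tw18*. Both targets, *Hes1* and *Hey1*, and the abundant receptors *Notch2* and *Notch3* stayed within the threshold. The median log2 ratio was 0.37 over the 10 genes and -0.02 over all genes tested. The former includes *Dll1*, which was under the FPKM limit and is not among the genes tested.

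**Figure D1:**
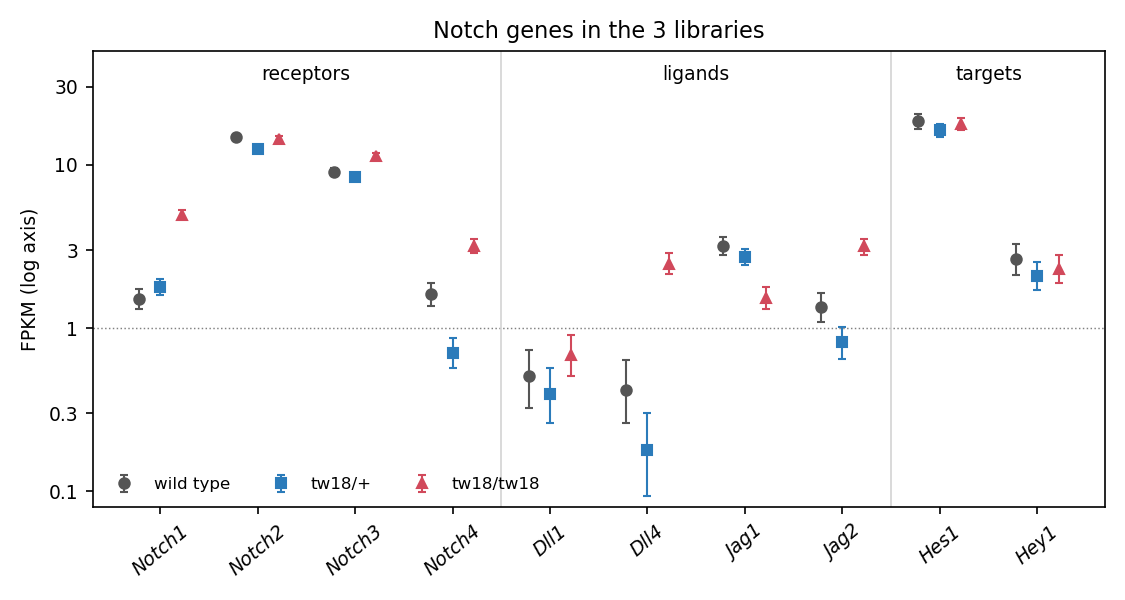
FPKM (log axis) of the 10 Notch genes in wild type (circles), *tw18*/+ (squares) and *tw18*/*tw18* (triangles), 1 library each, with 95% counting intervals and a dotted line at an FPKM of 1. *Notch2*, *Notch3* and *Hes1* lie highest in every library, and *Notch1*, *Dll4* and *Jag2* stand apart in *tw18*/*tw18*.

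*Notch2* was the most abundant receptor in each library. Its FPKM was 14.8 in wild type, 12.6 in *tw18*/+ and 14.4 in *tw18*/*tw18*, from about 2237, 2675 and 3043 fragments. The log2 ratio of *tw18*/*tw18* to wild type was -0.04 (95% interval -0.12 to 0.04), and it became 0.18 when the libraries were rescaled to equal FPKM sums. *tw18*/+ was the lowest library, with a log2 ratio of -0.24 (-0.32 to -0.16) to wild type.

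*Notch3*, a receptor known from vascular smooth muscle and pericytes, stood at an FPKM of 9.05 in wild type, 8.40 in *tw18*/+ and 11.3 in *tw18*/*tw18*. The log2 ratio of 0.31 (0.20 to 0.43) in *tw18*/*tw18* exceeded counting error but not the threshold of 1. Markers of mural and smooth muscle cells also had their highest sum in *tw18*/*tw18*. Over 10 genes it was 60.3 FPKM in wild type, 83.0 in *tw18*/+ and 245 in *tw18*/*tw18*, of which *Des*, the gene of the muscle filament desmin, made up 45.5, 65.9 and 201, so that *tw18*/+ lay above wild type here and below it for *Notch3*. Of these markers 5 were higher in *tw18*/*tw18* than in wild type and 2 were lower, *Cnn1* and *Actg2*, the latter listed at 0 in *tw18*/*tw18*. The part of these cells in the level of *Notch3* was not tested.

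*Notch1* was 3.29-fold higher in *tw18*/*tw18* than in wild type. It is a receptor required in somites and in endothelium, and its FPKM was 1.50 in wild type, 1.79 in *tw18*/+ and 4.95 in *tw18*/*tw18*, from about 205, 344 and 942 fragments. The homozygous library was high and the others lay close together. The log2 ratio was 1.72 (1.50 to 1.94) to wild type and 1.47 (1.29 to 1.65) to *tw18*/+, while that of *tw18*/+ to wild type was 0.25, with an interval that included 0. Over the 3 libraries the genes nearest to *Notch1* in log2 FPKM, among 11068 genes at an FPKM of 1 or more throughout, were *Phc3*, *Fcgrt* and *Dmpk*, at distances of 0.149, 0.162 and 0.177.

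*Notch4*, a receptor known from endothelium, reached an FPKM of 1.61 in wild type, 0.707 in *tw18*/+ and 3.18 in *tw18*/*tw18*, from about 152, 94 and 417 fragments. The intervals of the 3 libraries did not overlap, and *tw18*/+ was the lowest. Its log2 ratio to wild type was 0.98 (0.70 to 1.25) in *tw18*/*tw18*, just under the threshold, and passed it after centring each library on the median log2 ratio (1.02) or rescaling to equal FPKM sums (1.19). In *tw18*/+ it was -1.19 (-1.58 to -0.81), the only one of the 10 genes past the threshold between *tw18*/+ and wild type. Of the 12426 genes tested in that comparison 4.7% were higher and 5.02% lower in *tw18*/+. With a pseudocount of 1 the ratio was -0.61 and under the threshold.

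*Dll4*, the Delta ligand of arterial and sprouting endothelium, was 5.91-fold higher in *tw18*/*tw18* than in wild type. Its FPKM was 0.420 in wild type, 0.180 in *tw18*/+ and 2.48 in *tw18*/*tw18*, from about 22, 13 and 182 fragments. The homozygous library stood clear of the others, whose intervals overlapped. The log2 ratio was 2.56 (1.93 to 3.28) to wild type and 3.78 (3.01 to 4.76) to *tw18*/+, the widest difference among the 10 genes in both. That of *tw18*/+ to wild type was -1.22 (-2.37 to -0.20), between values that were both under an FPKM of 1. With a pseudocount of 1 the ratio to wild type was 1.29, still past the threshold.

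*Notch3*, *Notch4*, *Dll1*, *Dll4* and *Jag2* were lowest in *tw18*/+ and highest in *tw18*/*tw18*. So was the summed level of the endothelial markers, to which *Notch4* and *Dll4* are set here as genes known from that tissue. Over 12 genes it stood at 62.1 FPKM in wild type, 48.8 in *tw18*/+ and 128 in *tw18*/*tw18*. *Cdh5*, which encodes VE-cadherin, was at 23.2, 12.9 and 38.8, and *Pecam1*, which encodes CD31, at 8.39, 3.23 and 14.9. *Egfl7* was at 16.6, 18.7 and 23.2, and *Eng*, a TGFβ co-receptor, at 2.72, 2.51 and 15.6. Of these *Eng* was past the threshold to wild type, and *Cdh5*, *Pecam1* and *Egfl7* were not. Of the 12 markers 7 were higher and 0 lower in *tw18*/*tw18* than in wild type, and 10 were higher than in *tw18*/+. Between *tw18*/+ and wild type they were mixed, with 2 higher (*Tek* and *Emcn*) and 3 lower (*Pecam1*, *Kdr* and *Cldn5*), so the lower sum in *tw18*/+ is mainly that of *Cdh5* and *Pecam1*. The order of *tw18*/*tw18* above wild type above *tw18*/+ was kept by 6 of the 12 markers and by 5 of the 10 Notch genes. Of the 13118 genes with an FPKM of 1 or more in any library 19.4% kept it. *Dll1*, which stayed under an FPKM of 1, is not among these 13118. For *Notch3* and *Dll1* the step between wild type and *tw18*/+ lay within counting error. Their log2 ratios were -0.11 (-0.23 to 0.01) and -0.37 (-1.16 to 0.51). The order was not set in advance. It was not particular to endothelium, since 7 of 12 visceral endoderm, 6 of 10 extra-embryonic ectoderm and 5 of 12 decidual markers kept it. The immune and giant cell sums followed it too. *Erg* was listed at 0 in *tw18*/+. The part of endothelial RNA in *Notch4* and *Dll4* was not tested.

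**Figure D2:**
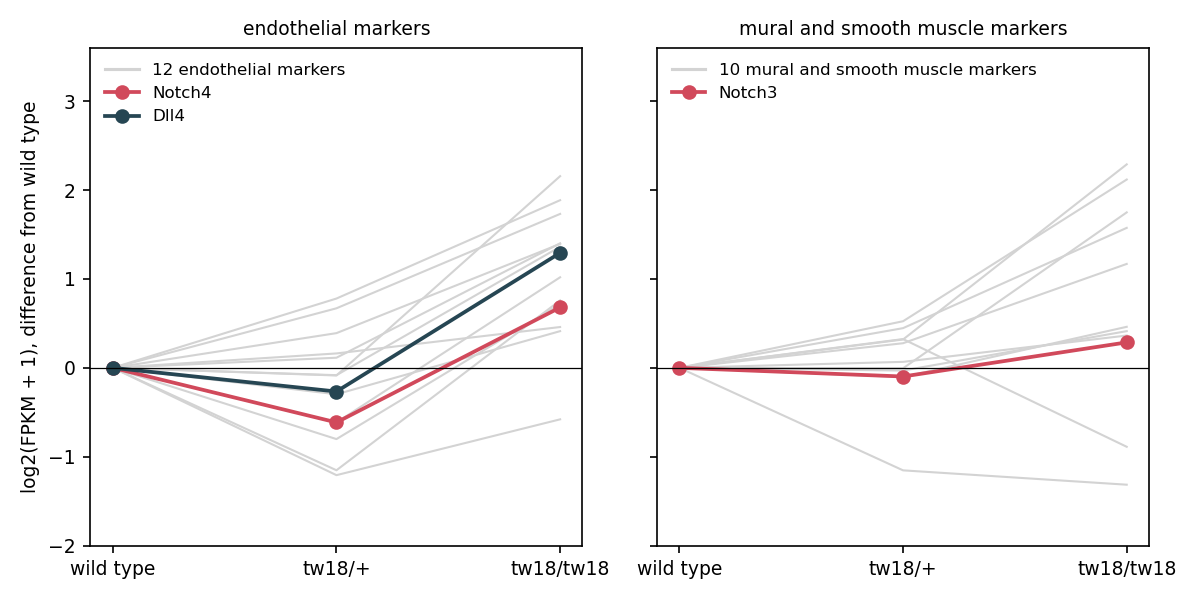
Difference of log2(FPKM + 1) from the wild type library for *Notch4* and *Dll4* beside 12 endothelial markers (left, grey lines) and for *Notch3* beside 10 mural and smooth muscle markers (right, grey lines), over wild type, *tw18*/+ and *tw18*/*tw18*. *Notch4* and *Dll4* dip in *tw18*/+ and are highest in *tw18*/*tw18*, within the range of the endothelial markers.

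*Jag2* was 2.36-fold higher in *tw18*/*tw18* than in wild type. This Jagged ligand reached 1.34 FPKM in wild type, 0.819 in *tw18*/+ and 3.16 in *tw18*/*tw18*, from about 97, 83 and 319 fragments, so that no interval overlapped another. The log2 ratio was 1.24 (0.90 to 1.58) to wild type and 1.95 (1.60 to 2.32) to *tw18*/+. With a pseudocount of 1 the ratio to wild type was 0.83 and under the threshold.

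*Jag1* went the other way and was 2.09-fold lower in *tw18*/*tw18* than in wild type. Its FPKM was 3.19 in wild type, 2.73 in *tw18*/+ and 1.53 in *tw18*/*tw18*, from about 254, 307 and 170 fragments. Wild type and *tw18*/+ overlapped in their intervals, and the homozygous library lay below both. The log2 ratio of -1.06 (-1.35 to -0.77) was near the threshold. It was -0.73 with a pseudocount of 1 and -0.85 after rescaling to equal FPKM sums, and to *tw18*/+ it was -0.84 (-1.12 to -0.56).

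*Dll1*, the Delta ligand of presomitic mesoderm, was low in all 3 libraries, at an FPKM of 0.507, 0.393 and 0.685 from about 25, 28 and 48 fragments. The log2 ratio of *tw18*/*tw18* to wild type was 0.43, and its interval of -0.27 to 1.22 reached from a slightly lower level to one past the threshold. The ratio to *tw18*/+ was 0.80 (0.09 to 1.52), an interval above 0, between values that were both under an FPKM of 1.

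Within the 4 ligand genes followed here the balance differed between the genotypes. *Dll3*, at 1.31, 0.671 and 2.24 FPKM, is not in this sum, though it lay above *Dll1* and *Dll4* in wild type and *tw18*/+. *Jag1* made up 58.5% of the summed ligand FPKM in wild type and 66.2% in *tw18*/+, but 19.5% in *tw18*/*tw18*. *Jag2* accounted for 24.6%, 19.9% and 40.3%, and *Dll4* for 7.69%, 4.38% and 31.5%. *Dll1* stayed between 8.71% and 9.55%. The sum itself was 5.46, 4.12 and 7.86 FPKM. Among the receptors *Notch2* and *Notch3* together remained the larger part, *Notch2* at 54.9% in wild type, 53.6% in *tw18*/+ and 42.7% in *tw18*/*tw18* and *Notch3* at 33.6%, 35.8% and 33.3%. *Notch1* held 5.57%, 7.64% and 14.6% of the receptor sum of 27.0, 23.5 and 33.8 FPKM. These shares do not depend on the scaling of the libraries.

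**Figure D3:**
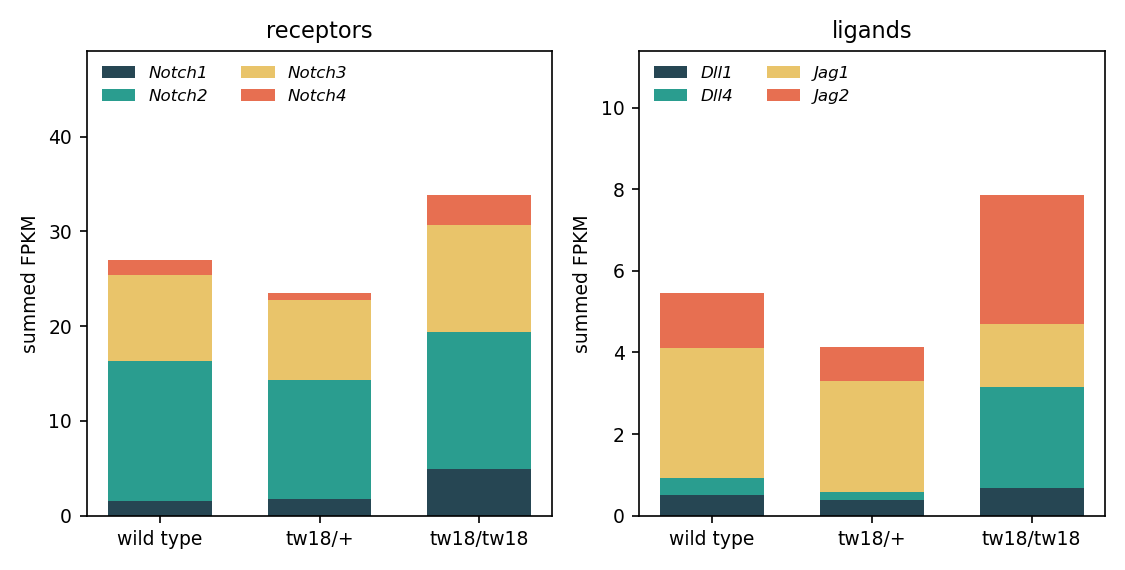
Summed FPKM of the 4 receptors (left) and the 4 ligands followed here, without *Dll3* (right), in each library, with the part of each gene in colour. The receptor bars are mostly *Notch2* and *Notch3* in each genotype, while the ligand bar is mostly *Jag1* in wild type and *tw18*/+ and mostly *Jag2* and *Dll4* in *tw18*/*tw18*.

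Both targets followed here, *Hes1* and *Hey1*, were close to level. Further genes listed with the targets are given below, and of these *Nrarp* passed the threshold. *Hes1*, a direct target of Notch in many tissues and the gene of a basic helix-loop-helix repressor, was measured at an FPKM of 18.6 in wild type, 16.3 in *tw18*/+ and 17.8 in *tw18*/*tw18*, from about 357, 441 and 478 fragments. All 3 intervals overlapped. The log2 ratio of *tw18*/*tw18* to wild type was -0.06 (-0.26 to 0.14), an interval within the threshold on both sides, and it was 0.15 after rescaling to equal FPKM sums. *Hey1*, which encodes a related repressor, was at 2.66, 2.09 and 2.32 FPKM from about 88, 98 and 107 fragments, again with overlapping intervals. Its log2 ratio was -0.20 (-0.62 to 0.23) to wild type, and 0.01 after that rescaling.

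**Figure D4:**
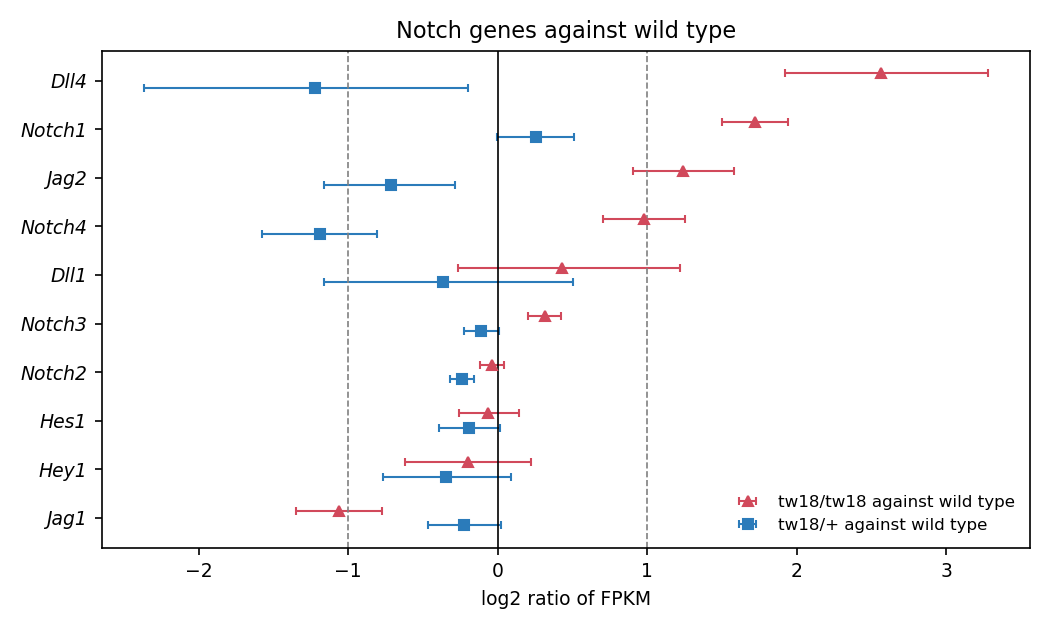
Log2 ratio of FPKM to wild type for each of the 10 genes in *tw18*/*tw18* (triangles) and *tw18*/+ (squares), with 95% counting intervals and dashed lines at the threshold of 1 in either direction. *Dll4*, *Notch1* and *Jag2* lie past it to the right and *Jag1* to the left in *tw18*/*tw18*, and *Notch4* to the left in *tw18*/+ (*Dll4* in *tw18*/+ had under 1 FPKM in both libraries and was not counted).

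In wild type the order of the levels was *Hes1*, *Notch2*, *Notch3*, *Jag1*, *Hey1*, *Notch4*, *Notch1*, *Jag2*, *Dll1* and *Dll4*. Neighbours whose counting intervals overlapped were *Jag1* with *Hey1*, *Notch4* with *Notch1*, *Notch1* with *Jag2*, and *Dll1* with *Dll4*. In *tw18*/*tw18* the order was *Hes1*, *Notch2*, *Notch3*, *Notch1*, *Notch4*, *Jag2*, *Dll4*, *Hey1*, *Jag1* and *Dll1*. There *Notch4* overlapped with *Jag2*, *Jag2* with *Dll4*, and *Dll4* with *Hey1*.

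Against *tw18*/+, 4 of the 10 genes were higher in *tw18*/*tw18* and 0 lower, *Notch1*, *Notch4*, *Dll4* and *Jag2*, where 14.9% of the 12846 genes tested were higher and 5.65% lower. This comparison shares the *tw18*/*tw18* library with the one to wild type. *Notch4* was 4.50-fold and *Jag2* 3.87-fold higher, and each of the 4 stayed past the threshold with a pseudocount of 1. *Notch2* (log2 ratio 0.20) and *Notch3* (0.42) had intervals above 0 and within the threshold, and those of *Hes1* (0.13) and *Hey1* (0.15) included 0.

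The wider pathway was described with 65 further genes in 8 lists by role, of which 54 reached an FPKM of 1 in *tw18*/*tw18* or wild type. Of these 9 were higher in *tw18*/*tw18*, 0 were lower and 45 stayed within the threshold, with a median log2 ratio of 0.11. The 9 of 54 are a share near the 15.1% of all genes that were higher. With a pseudocount of 1 the count was 6, without *Nrarp*, *Mib2* and *Neurl1b*. *Dlk2*, *Mfap5* and *Kat2b* are named by a rule on level and ratio, *Rbpj* as the core of the nuclear complex, and the others below were chosen after their values were seen. Between *tw18*/+ and wild type only *Mfap5* was higher and *Dlk1* lower of 53 genes at the floor, where 4.7% and 5.02% of all genes were. Between *tw18*/*tw18* and *tw18*/+ 8 of 55 were higher and 0 lower, the former again near the share of all genes, 14.9%.

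The core of the nuclear complex was level. *Rbpj* was at 33.6 FPKM in wild type, 31.0 in *tw18*/+ and 36.1 in *tw18*/*tw18*, a log2 ratio of 0.11 to wild type. The Mastermind gene *Maml1* was at 8.70, 8.58 and 10.6. Of that list only *Kat2b*, a histone acetyltransferase, passed the threshold, at 4.07, 3.97 and 9.68 FPKM (log2 ratio 1.25). All 9 genes of receptor turnover, among them *Numb* and *Itch*, were within it.

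Among the genes that cut the receptor, the protease gene *Adam10* was at 12.6, 12.0 and 18.4 FPKM and within the threshold. *Psen2*, which encodes a catalytic subunit of gamma-secretase, was at 1.38, 2.57 and 4.60 (log2 ratio 1.74). *Lfng*, a Fringe glycosyltransferase that alters which ligands a receptor answers to, was at 1.40, 1.34 and 4.93 (1.82), while *Rfng* was at 11.1, 10.7 and 14.5. *Mib1*, the ubiquitin ligase that drives ligand endocytosis, was at 12.9, 14.6 and 16.7, and its relatives *Mib2* and *Neurl1b* passed the threshold at low levels of 2.28 and 1.74 in *tw18*/*tw18*.

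The atypical ligands *Mfap5* and *Dlk2* had the widest ratios among the 9 genes, leaving aside *Tle2*, which has none. *Dlk2*, a Delta-like protein without the receptor-binding DSL domain, was at 1.13 FPKM in wild type, 1.49 in *tw18*/+ and 8.41 in *tw18*/*tw18* (log2 ratio 2.89). *Mfap5*, a microfibril protein reported to bind Jagged and Notch proteins, was at 3.34, 7.10 and 29.8 (3.16). *Dll3*, which acts within the cell, was at 1.31, 0.671 and 2.24 and under the threshold to wild type. The corepressor gene *Tle2* was listed at 0 in wild type and was at 1.30 in *tw18*/*tw18*.

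Of the 8 further genes listed with the targets, only *Hes6* and *Nrarp* reached an FPKM of 1 in *tw18*/*tw18* or wild type. Not all of these 8 are established targets of Notch. *Nrarp*, a Notch-induced feedback inhibitor, was at 1.72, 2.07 and 3.85 FPKM, a log2 ratio of 1.17 to wild type. *Hes6* was at 11.5, 14.9 and 11.9, and was not taken as a measure of Notch activity. *Hes2*, *Hes3* and *Hes5* were listed at 0 in every library. *Heyl* was at 0.112, 0.252 and 0.587, below the floor.

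**Figure D5:**
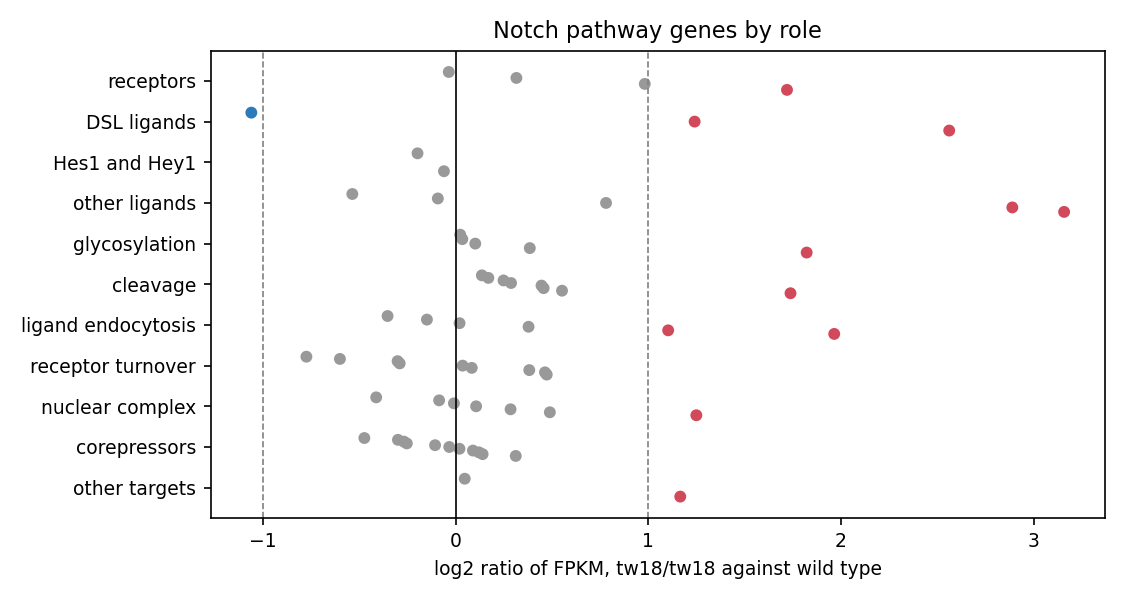
Log2 ratio of FPKM between *tw18*/*tw18* and wild type for the Notch genes and the other listed pathway genes by role, for genes at an FPKM of 1 or more in either library, with dashed lines at the threshold of 1. Genes past the threshold are red (higher) or blue (lower, *Jag1*), the rest are grey, and *Tle2*, at 0 in wild type, has no point.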

How the data were processed

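Per the labels and the methods, total RNA libraries (TotalScript kit) were read from both ends over 50 bases. The authors aligned the reads to mm10 (GRCm38) using TopHat, and the deposited FPKM values are Cuffdiff's. The submitters' processing notes also name Bowtie 1.0.0 and Cufflinks 2.2.1. The annotation and the strand setting are not given in the sources used here.

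Genotypes were taken from the labels. Log2 ratios were computed from the FPKM values without a pseudocount (pandas 2.3.3 and numpy 2.4.6 under Python 3.11.15). Intervals are from scipy 1.17.1 and plots from matplotlib 3.10.9. The threshold was a log2 ratio of 1, up or down, with the higher value at 1 FPKM or more. There is no test, since each genotype has 1 library.

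Fragments per gene were estimated from the steps of low values in genes with 1 GENCODE M21 transcript, less 150 bases for the fragment length. Between 68.9% and 74.4% of the 180 to 278 values used per library lay within 0.2 of a whole number, so depth and fragment numbers are approximate. Levels have exact Poisson intervals and ratios exact conditional binomial intervals. PCR copies are not independent molecules. The longest coding transcript of each gene was used. The depth and call steps were also run on simulated data with large set changes and little noise. That checks the arithmetic only, not how accurate depth or calls are in these libraries.

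The 10 genes and all lists were chosen with earlier results of these data known. By rule, named pathway genes passed the threshold in *tw18*/*tw18* against wild type at an FPKM of at least 5 (*Dlk2*, *Mfap5*, *Kat2b*), plus *Rbpj*. Named markers were the 4 most abundant of a list or those at 0, and the neighbours of *Notch1* were the 3 nearest by Euclidean distance. Other pathway genes, and *Cnn1*, *Tek*, *Emcn*, *Kdr* and *Cldn5*, were named after their values were seen. *Aes* stands for *Tle5*. Promoters are RefSeq windows of GRCm38.p6, whose build is that of the files.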

Additional observations from a re-analysis of the deposited data

How the results depend on the processing

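No paired analysis was possible because each genotype has 1 library, and no replicate could be left out for the same reason. The alternatives were pseudocounts of 0.1 and 1, no filter or an FPKM of at least 5, a log2 threshold of 2, and 3 other scalings. Of the 30 log2 ratios of the 10 genes, 3 changed sign under any of the pseudocounts and scalings, those of *Notch2*, *Hes1* and *Hey1* between *tw18*/*tw18* and wild type, and none of these had passed the threshold. Rescaling to equal FPKM sums raised every log2 ratio of *tw18*/*tw18* by 0.21 to wild type and by 0.25 to *tw18*/+. Of the 4 genes counted in *tw18*/*tw18* against wild type, 2 remained with a pseudocount of 1 (*Notch1* and *Dll4*), 1 at a threshold of 2 (*Dll4*) and 0 at an FPKM of at least 5, which only *Notch2*, *Notch3* and *Hes1* reached. For *tw18*/+ against wild type the count of 1 became 2 without a filter and 0 with a pseudocount of 1, at an FPKM of 5 or at a threshold of 2. Against *tw18*/+ the count of 4 in *tw18*/*tw18* became 2 at a threshold of 2 and 0 at an FPKM of 5. Among all genes tested the same settings gave, in the first comparison, 9.50% higher and 4.12% lower with a pseudocount of 1, 8.96% and 4.11% at an FPKM of 5, and 5.76% and 2.28% at a threshold of 2. In the comparison of *tw18*/+ with wild type they gave 4.35% and 4.66% with a pseudocount of 0.1, 2.12% and 2.31% with a pseudocount of 1, 15.8% and 9.91% without a filter, 1.12% and 1.63% at an FPKM of 5, and 1.71% and 1.69% at a threshold of 2. Against *tw18*/+ they gave 9.18% and 2.92% with a pseudocount of 1, 9.24% and 3.21% at an FPKM of 5, 4.75% and 1.52% at a threshold of 2, and 19.8% and 3.67% with equal FPKM sums. Among the other pathway genes, the 9 in *tw18*/*tw18* against wild type became 3 at an FPKM of 5 and 3 at a threshold of 2. The 2 in *tw18*/+ became 1 with a pseudocount of 0.1, 0 with a pseudocount of 1, 9 without a filter, 1 at an FPKM of 5 and 0 at a threshold of 2. The 8 against *tw18*/+ became 5 with a pseudocount of 1, 3 at an FPKM of 5, 4 at a threshold of 2 and 13 with equal FPKM sums. Every other alternative left its count within 1.5 times. Depth limits *Dll1* and *Dll4* most, with 13 to 48 fragments per library outside *Dll4* in *tw18*/*tw18*.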
